A study of Mus musculus with 3 samples.

Results

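Complement is a set of plasma and cell surface proteins, and its genes were described here through a list of 34, covering recognition molecules, proteases, the terminal pathway, receptors and regulators. Of these, 32 had a probe set with that single gene symbol, each exactly 1 probe set, among 19938 genes measured in the series; C3 and Cfd were not analysed here. The arrays were Affymetrix Mouse Gene 1.0 ST, hybridised with total kidney RNA of female CBL/6 mice aged 8 to 10 weeks. The NTS/PGE2 array came from mice given sheep nephrotoxic serum (NTS) once, at 13.5 ug per g of body weight, and then prostaglandin E2 (PGE2) at 5 ug per g every day from day 2. The NTS array came from mice given the serum alone, and treated mice were sacrificed on day 7. The control array came from non-treated mice, for which the labels give neither a vehicle nor a non-immune serum. Whether an array held RNA of 1 animal or of a pool is not stated. Each group has a single array, so differences could not be set against a replicate spread and p-values were not calculated. Precision is limited by the number of arrays, and the spread between animals is unknown.

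Complement is activated through 3 routes. In the classical pathway C1q binds antibody on a target, and in the lectin pathway mannose-binding lectins and ficolins bind sugars. The alternative pathway, besides being a route of its own, can amplify C3b already deposited. All converge on C3 and then C5, and C5b with C6, C7, C8 and C9 forms the membrane attack complex. Inhibitors in plasma and on cell membranes hold each step in check. The liver makes most plasma complement, but kidney tubules, resident macrophages, endothelium and stroma express some of the genes. In nephritis induced by antibody against the glomerulus, the deposited antibody can fix complement there.

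Values are log2 expression values as the authors deposited them, so a difference of 1 is 2-fold; a difference of at least 1 was taken as called, which is a threshold on size alone. On the NTS array 1 of the 32 complement genes, the regulator Cfi, read at least 2-fold higher than on the control array, where 1.78% of all genes did. Another 4, C8a, C8g, Serping1 and C3ar1, read at least 2-fold lower (12.5% of the 32), where 3.37% of all genes did. On the NTS/PGE2 array C8a, C8g and Serping1 read at least 2-fold higher than on the NTS array, which is 9.38% of the 32, beside 2.56% of all genes. Cfi alone read at least 2-fold lower, beside 2.1% of all genes. Between NTS/PGE2 and control 0 of the 32 were called in either direction, beside 0.0351% of all genes higher and 0.421% lower. The median difference of the 32 genes was 0 in all 3 comparisons, as was that of all genes. The plot of levels on the 3 arrays shows that the genes with separated points belonged to several branches of the cascade.

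**Figure D1:**
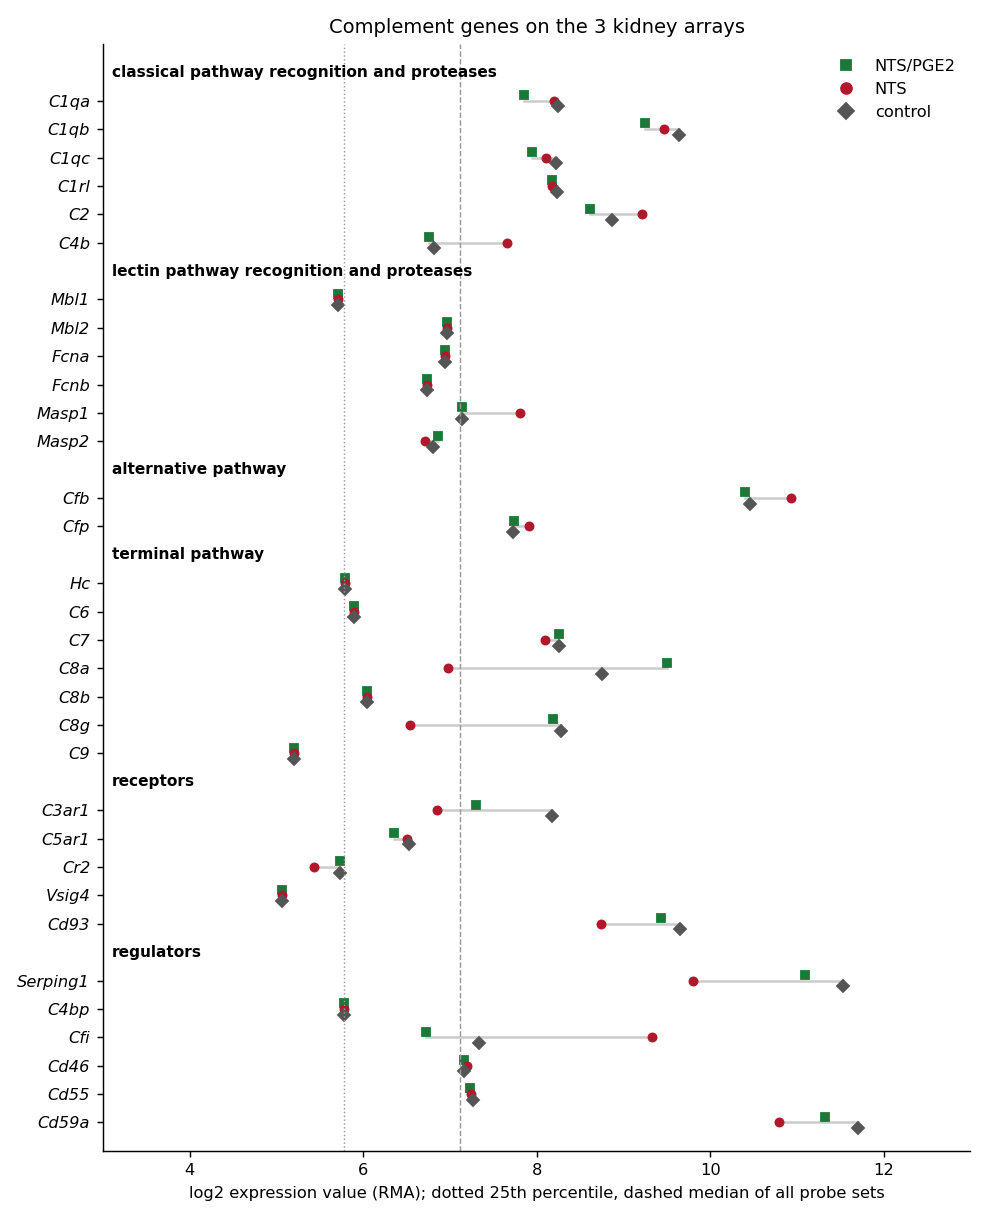
Log2 expression value (horizontal axis) of the 32 complement genes on the NTS/PGE2, NTS and control arrays, 1 point per array, grouped by role; the grey bar joins the lowest and highest value. Cfi stands highest on the NTS array (9.33), C8a and C8g lowest (6.98 and 6.54), and 10 genes have 1 value on all 3 arrays.

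Of the 32 genes, 10 had exactly equal values on all 3 arrays, or 31.2%, beside 29.1% of all genes. Such ties can arise when probes are summarised by median polish over few arrays and do not show that a gene was unchanged. They were the lectin pathway genes Mbl1, Mbl2, Fcna and Fcnb, the terminal pathway genes Hc, C6, C8b and C9, the receptor gene Vsig4 and the inhibitor gene C4bp. Mbl1, C9, Vsig4 and Cr2 lay below the 25th percentile of every array (5.79 on NTS/PGE2, 5.78 on NTS and 5.77 on control), where a value may be background. C4bp, at 5.77 on each array, lay below it on NTS/PGE2 and NTS.

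Genes of the series with 2 bright probe sets give a measure of technical precision, though not of the spread between animals. The gap was not measured on dimmer probe sets, which some of the 32 genes have. Over 459 such genes, the 95th percentile of the gap between the probe sets' differences was 0.60 for NTS minus control, 0.64 for NTS/PGE2 minus NTS and 0.37 for NTS/PGE2 minus control. Wider than these gaps were 9, 7 and 7 of the 32 complement genes in the 3 comparisons, beside 12.2%, 10.4% and 5.15% of all genes. At a difference of 0.5 or more, 3 genes stood higher and 6 lower on NTS than on control, beside 6.33% and 9.1% of all genes. For NTS/PGE2 against NTS these were 5 higher and 5 lower, beside 7.8% and 7.28%. For NTS/PGE2 against control they were 1 higher and 2 lower, beside 0.632% and 2.01%.

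**Figure D2:**
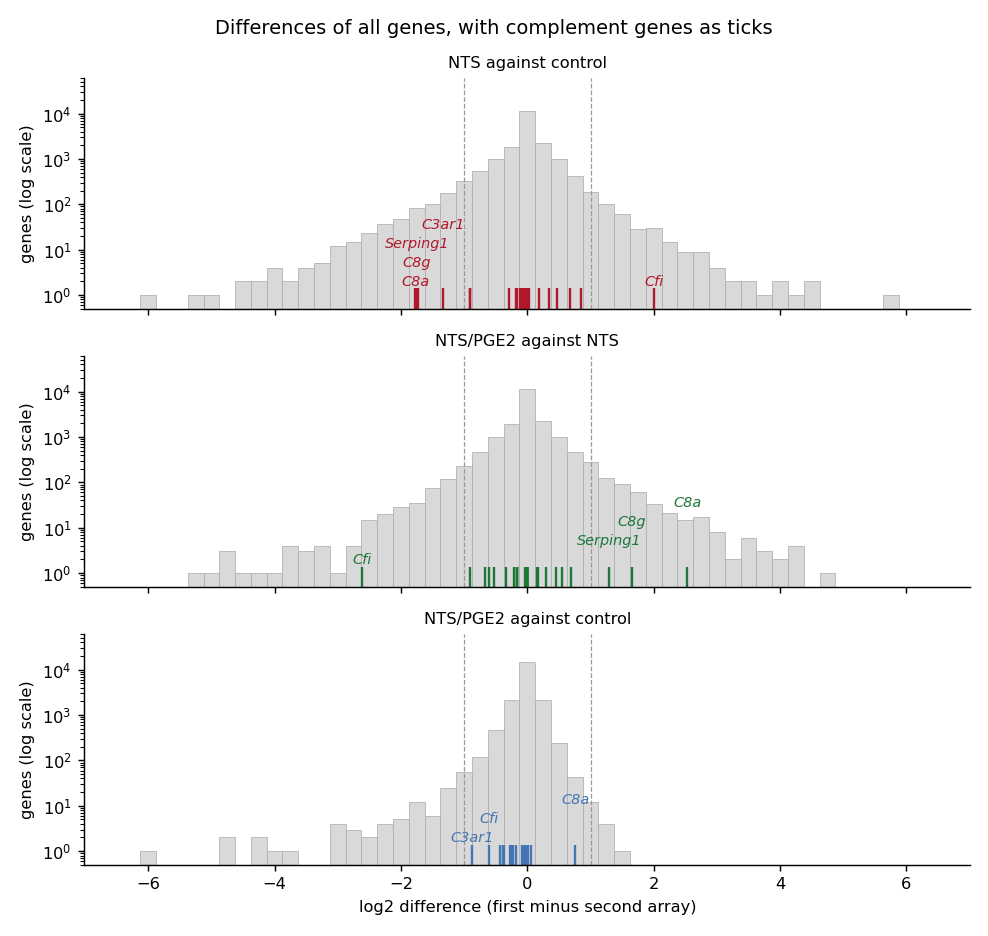
Log2 difference (horizontal axis) of all 19938 genes as histograms with a logarithmic count axis, 1 panel per comparison; coloured ticks are the 32 complement genes, the dashed lines mark a difference of 1, and called genes are named (in the lowest panel, those beyond 0.6). Most ticks lie near 0 in each panel, and no tick passes the dashed lines for NTS/PGE2 against control.

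The control array differed from both others in genes of fat. Of 8 fat markers, 7 read at least 2-fold lower on NTS/PGE2 and 7 on NTS than on control, and the brown fat gene Ucp1 read 5.91 on NTS/PGE2, 5.72 on NTS and 11.84 on control. The summed linear level of the 8 was 1571 on NTS/PGE2, 1216 on NTS and 14639 on control. Fat contains macrophages, endothelium and stroma and expresses complement genes of its own. Between NTS/PGE2 and NTS, 1 of the 8 fat markers read at least 2-fold higher on NTS/PGE2 and 1 lower. The part of fat in the differences of complement genes was not tested in any comparison.

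The classical pathway begins with C1q, assembled from the chains C1qa, C1qb and C1qc, which tissue macrophages express. C1qa read 7.86 on NTS/PGE2, 8.20 on NTS and 8.25 on control. C1qb read 9.25 on NTS/PGE2, 9.47 on NTS and 9.64 on control. C1qc read 7.94 on NTS/PGE2, 8.11 on NTS and 8.22 on control. All 3 chains had the same order of arrays, with NTS/PGE2 lowest and control highest. The steps were small: NTS minus control was -0.05, -0.17 and -0.12 for C1qa, C1qb and C1qc, and NTS/PGE2 minus control was -0.39, -0.39 and -0.28. For C1qa and C1qb the last of these exceeded the 0.37 gap between probe sets of a gene.

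The C1q chain genes are direct neighbours, in the order C1qb, C1qc, C1qa, with 0 protein-coding genes between them in the GRCm38.p6 annotation. The promoter windows of C1qb and C1qc are shown because these chains kept the same order over the arrays. The windows are RefSeq sequence of GRCm38.p6, from 250 bases before to 50 bases after the gene's start, for C1qb at chr4:136886151-136886450, minus strand, and for C1qc at chr4:136892865-136893164, minus strand; no window of C1qa is shown. Capitals mark the letters GAGGAA on either strand, searched as the core of the motif of PU.1, a factor of the macrophage lineage.
C1qb: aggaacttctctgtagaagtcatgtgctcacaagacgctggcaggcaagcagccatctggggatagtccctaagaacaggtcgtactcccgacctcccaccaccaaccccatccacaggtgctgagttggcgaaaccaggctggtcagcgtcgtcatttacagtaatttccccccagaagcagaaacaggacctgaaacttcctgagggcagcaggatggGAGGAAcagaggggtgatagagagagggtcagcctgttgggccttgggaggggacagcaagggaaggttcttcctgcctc
C1qc: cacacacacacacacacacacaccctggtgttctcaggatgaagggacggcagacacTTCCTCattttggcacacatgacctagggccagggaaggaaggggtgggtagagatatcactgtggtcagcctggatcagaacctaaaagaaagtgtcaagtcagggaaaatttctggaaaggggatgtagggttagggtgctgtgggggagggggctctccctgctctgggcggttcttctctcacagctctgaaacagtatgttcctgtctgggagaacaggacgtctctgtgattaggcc
C1qb has its match 30 to 25 bases before the start, and C1qc has one on the opposite strand, 193 to 188 bases before the start. These letters occur in 28.3% of all 32851 windows of this length and in 6 of the 25 windows of the listed genes, so a match describes the sequence only.

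C2 and C4 form the C3 convertase of the classical and lectin pathways. C4b, the C4 gene, read 6.76 on NTS/PGE2, 7.66 on NTS and 6.81 on control. It was higher on NTS than control by 0.85 and lower on NTS/PGE2 than NTS at -0.90. Both were under the 2-fold rule but beyond the gap between bright probe sets. C4a is a near copy of C4b and read 6.22 on all 3 arrays, so the separate values of the pair are uncertain. C2 read 8.61 on NTS/PGE2, 9.21 on NTS and 8.87 on control, with NTS minus control at 0.34 and NTS/PGE2 minus NTS at -0.60. C1rl, a C1r-like protease, read 8.17 on NTS/PGE2, 8.17 on NTS and 8.23 on control. The C1r gene C1ra read 7.33 on NTS/PGE2, 7.40 on NTS and 7.33 on control. The C1s gene C1s1 read 7.03 on NTS/PGE2, 6.98 on NTS and 7.11 on control. The proteases of the C1 complex therefore differed between arrays by under 0.5.

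Of the 6 lectin pathway genes, 4 had equal values on all arrays. Masp1, the lectin pathway protease that also acts on the alternative pathway, had the widest difference of the 6, and read 7.14 on NTS/PGE2, 7.81 on NTS and 7.14 on control. It was higher on NTS than on control by 0.67 and equal between NTS/PGE2 and control. Masp2, the protease that cleaves C4 and C2, read 6.86 on NTS/PGE2, 6.72 on NTS and 6.81 on control. The recognition molecules of the pathway, Mbl1, Mbl2, Fcna and Fcnb, read 5.71, 6.96, 6.94 and 6.74, each equal on all 3 arrays. Among the further collectins, Colec12, a scavenger receptor of endothelium, read 8.38 on NTS/PGE2, 7.95 on NTS and 8.74 on control.

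Cfb and Cfp stand for the alternative pathway. Cfb, the protease subunit of its C3 convertase, read 10.41 on NTS/PGE2, 10.93 on NTS and 10.46 on control. NTS exceeded control by 0.47, within the 0.60 gap between probe sets, and NTS/PGE2 minus NTS was -0.53. Cfp, properdin, which stabilises the convertase, read 7.74 on NTS/PGE2, 7.91 on NTS and 7.72 on control. Cfb and C2 are direct neighbours, and C4b lies 5 protein-coding genes from Cfb on chromosome 17. All of C4b, Cfb and C2 read highest on the NTS array, as the plot of neighbouring genes shows.

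**Figure D3:**
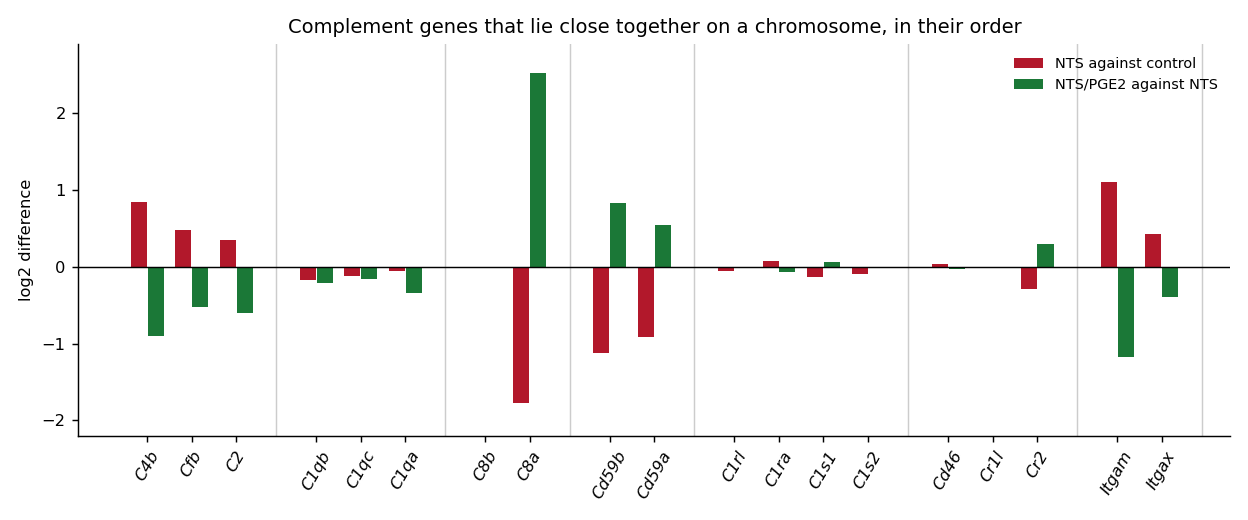
Log2 differences (vertical axis) of complement genes (NTS minus control in red, NTS/PGE2 minus NTS in green) lying close together on a chromosome, in chromosomal order, with grey lines between clusters. C4b, Cfb and C2 share their signs. C8a differs by -1.77 and 2.53, and the values of its neighbour C8b are tied on all 3 arrays.

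The terminal pathway held the lowest difference of the 32 genes for NTS against control and the highest for NTS/PGE2 against NTS, both in C8a. C8 is made of an alpha, a beta and a gamma chain, and its alpha chain helps to form the membrane pore, while the gamma chain is a lipocalin. C8a, the alpha chain gene, read 9.51 on NTS/PGE2, 6.98 on NTS and 8.75 on control. It was lower on NTS than on control by 3.42-fold and higher on NTS/PGE2 than on NTS by 5.77-fold. It was also higher on NTS/PGE2 than on control, by 0.76 on the log2 scale, the only one of the 32 genes that stood at least 0.5 higher there.

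C8g, the gamma chain gene, read 8.19 on NTS/PGE2, 6.54 on NTS and 8.28 on control. NTS was 3.35-fold below control and NTS/PGE2 was 3.15-fold above NTS, and NTS/PGE2 differed from control by -0.09. C8b, the beta chain gene, read 6.05 on all 3 arrays. The values of C8a and C8g were thus lowest on NTS, while those of C8b were tied.

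C8a and C8b are direct neighbours on chromosome 4, while C8g is on chromosome 2. The promoter windows of the 3 chains are shown because C8a and C8g both read lowest on NTS while the C8b values were tied. They are RefSeq sequence of GRCm38.p6 from 250 bases before to 50 after the start: C8a at chr4:104876349-104876648, minus strand; C8b at chr4:104766067-104766366, plus strand; and C8g at chr2:25501670-25501969, minus strand. Capitals mark the letters TTCNNNGAA, which read alike on either strand and were searched as the motif of STAT factors.
C8a: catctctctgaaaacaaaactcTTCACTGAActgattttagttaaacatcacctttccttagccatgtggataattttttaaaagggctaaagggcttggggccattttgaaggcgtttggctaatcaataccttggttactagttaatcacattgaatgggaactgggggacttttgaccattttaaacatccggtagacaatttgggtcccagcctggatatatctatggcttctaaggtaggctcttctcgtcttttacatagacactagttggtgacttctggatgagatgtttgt
C8b: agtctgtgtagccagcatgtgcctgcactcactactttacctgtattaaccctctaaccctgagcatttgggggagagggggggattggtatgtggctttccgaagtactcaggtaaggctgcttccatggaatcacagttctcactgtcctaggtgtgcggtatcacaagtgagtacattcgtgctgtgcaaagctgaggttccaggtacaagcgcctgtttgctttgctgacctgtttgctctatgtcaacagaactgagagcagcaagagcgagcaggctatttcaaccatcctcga
C8g: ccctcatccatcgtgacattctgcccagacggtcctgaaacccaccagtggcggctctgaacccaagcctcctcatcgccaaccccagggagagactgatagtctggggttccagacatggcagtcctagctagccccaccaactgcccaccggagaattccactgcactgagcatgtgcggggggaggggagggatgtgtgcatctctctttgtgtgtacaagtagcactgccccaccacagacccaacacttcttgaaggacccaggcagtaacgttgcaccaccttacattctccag
The C8a window has 1 match, TTCACTGAA, 228 to 220 bases before the start, and the C8b and C8g windows have none. The letters occur in 8.3% of the 32851 windows and in 3 of the 25 windows of the listed genes, those of C8a, C7 and Masp2. Other letters were searched on both strands in the same 25 windows, among which the called genes Cfi and Serping1 have none. GGG and CC with 5 bases between them, for NF-kB, were in 9, beside 50.8% of all windows, and TTGCNNAA, for C/EBP, was in 3, beside 10.8%. GAAA and GAAA with 2 bases between them, an interferon element, were in 2, those of Cd46 and Cd59a, beside 3.44%. A single base may belong to matches of several of these motifs.

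C7, which inserts the complex into the membrane, read 8.26 on NTS/PGE2, 8.09 on NTS and 8.26 on control. Hc, the mouse C5 gene, read 5.79, C6 5.90 and C9 5.20, each on all 3 arrays. So of 7 terminal pathway genes 2 were called lower on NTS than on control, 3 were lower at any size and 4 were equal. Of all 19938 genes, 3.37% were called lower in this comparison, 6029 were lower at any size and 7369 were equal. Markers of the proximal tubule, the distal nephron and the liver had summed levels in the array order of C8a, with NTS lowest and NTS/PGE2 highest, although 5 of the 8 proximal tubule markers read lower on NTS/PGE2 than on control. All 8 proximal tubule markers read at least 2-fold lower on NTS than control, with a summed linear level of 54164 on NTS/PGE2, 15812 on NTS and 52932 on control. All 6 distal nephron markers read highest on NTS/PGE2, with sums of 41868 on NTS/PGE2, 20821 on NTS and 36139 on control. All 5 measured liver markers read lower on NTS than control, 1 of them 2-fold, with sums of 3663 on NTS/PGE2, 1937 on NTS and 2951 on control. The albumin gene Alb read 10.51 on NTS/PGE2, 7.57 on NTS and 9.86 on control, which is the same order of arrays as in C8a. Their part in the values of C8a and C8g was not tested. In RNA of whole kidney, fewer cells of a type and less RNA per cell cannot be told apart.

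**Figure D4:**
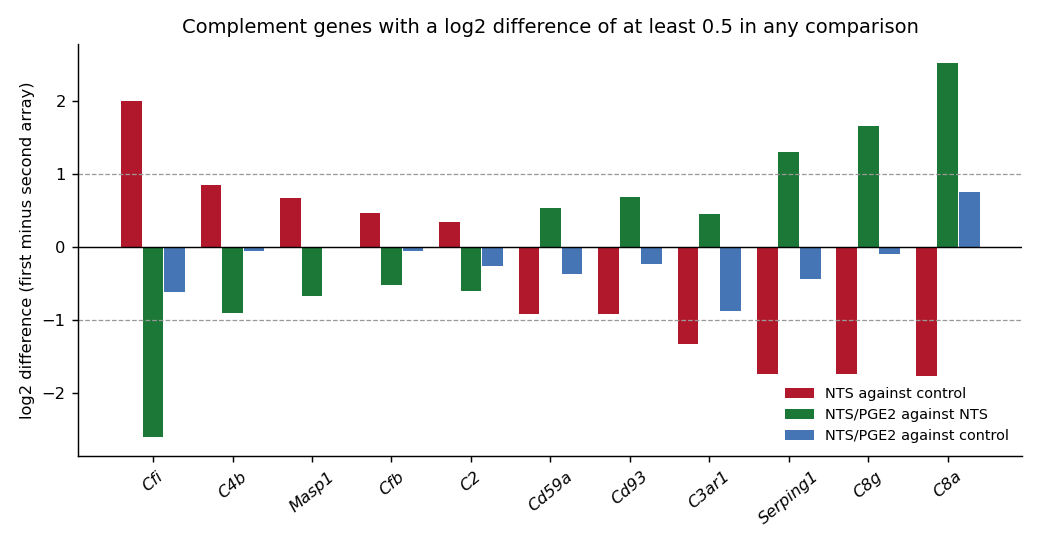
Log2 differences (vertical axis) of the 11 complement genes with a difference of at least 0.5 in any comparison, 3 bars per gene for the 3 comparisons; dashed lines mark a difference of 1. Cfi, at 2.00 and -2.61, and C8a, at -1.77 and 2.53, have the tallest bars, in opposite directions.

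Among the receptors, C3ar1, the receptor of the anaphylatoxin C3a on myeloid cells, read 7.30 on NTS/PGE2, 6.85 on NTS and 8.18 on control. NTS lay 2.51-fold below control. NTS/PGE2 lay 0.45 above NTS, within the gap between probe sets of a gene, while NTS/PGE2 minus control was -0.88. C3ar1 had the largest negative difference of the 32 genes between NTS/PGE2 and control. C5ar1, the C5a receptor, read 6.35 on NTS/PGE2, 6.51 on NTS and 6.53 on control. Vsig4, a C3b receptor of resident macrophages, read 5.06 on all 3 arrays, and Cr2, the C3d receptor of B cells, read 5.73 on NTS/PGE2, 5.44 on NTS and 5.73 on control, both below the 25th percentile. Of 5 measured B cell markers 0 differed 2-fold between any arrays. Of these markers, Ms4a1 and Cd79a lay below the 25th percentile of every array, and Ms4a1, Cd22 and Pax5 were tied on all 3 arrays.

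Macrophage markers moved unequally beside C3ar1 and the C1q chains. Of 10 measured, 1 read at least 2-fold higher on NTS than control and 3 lower, and their summed linear level was 2128 on NTS/PGE2, 2693 on NTS and 2738 on control. Csf1r, the CSF1 receptor, read 9.55 on NTS/PGE2, 8.30 on NTS and 9.39 on control. Adgre1 (F4/80) read 7.07 on NTS/PGE2, 6.67 on NTS and 7.54 on control, while the lysosomal gene Cd68 read 7.58 on NTS/PGE2, 10.34 on NTS and 8.12 on control. C3ar1 had the order of Adgre1, with NTS lowest and NTS/PGE2 between NTS and control. The C1q chains, with NTS/PGE2 lowest and control highest, had the order of the summed level. That sum leans on Cd68, the brightest of the measured markers on NTS. Of the single markers Mpeg1 alone had this order, and read 7.23 on NTS/PGE2, 7.31 on NTS and 7.59 on control. Csf1r, Adgre1, Cx3cr1, Fcgr1, Lyz2 and Ms4a7 read lowest on NTS instead. The part of macrophage number in these values was not tested.

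Cd93 encodes a surface protein of endothelium and myeloid cells, first described as a C1q receptor. It read 9.43 on NTS/PGE2, 8.74 on NTS and 9.65 on control. NTS minus control was -0.91 and NTS/PGE2 minus NTS was 0.69, both under 2-fold. All 8 endothelium markers read lower on NTS than on control, 6 of them at least 2-fold, with differences between -2.26 and -0.78. All 8 read higher on NTS/PGE2 than on NTS, 6 at least 2-fold. Pecam1, the CD31 gene, read 9.33 on NTS/PGE2, 8.78 on NTS and 9.55 on control. Cd93 lay within the range of these markers in both comparisons; the part of endothelium in its values was not tested.

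**Figure D5:**
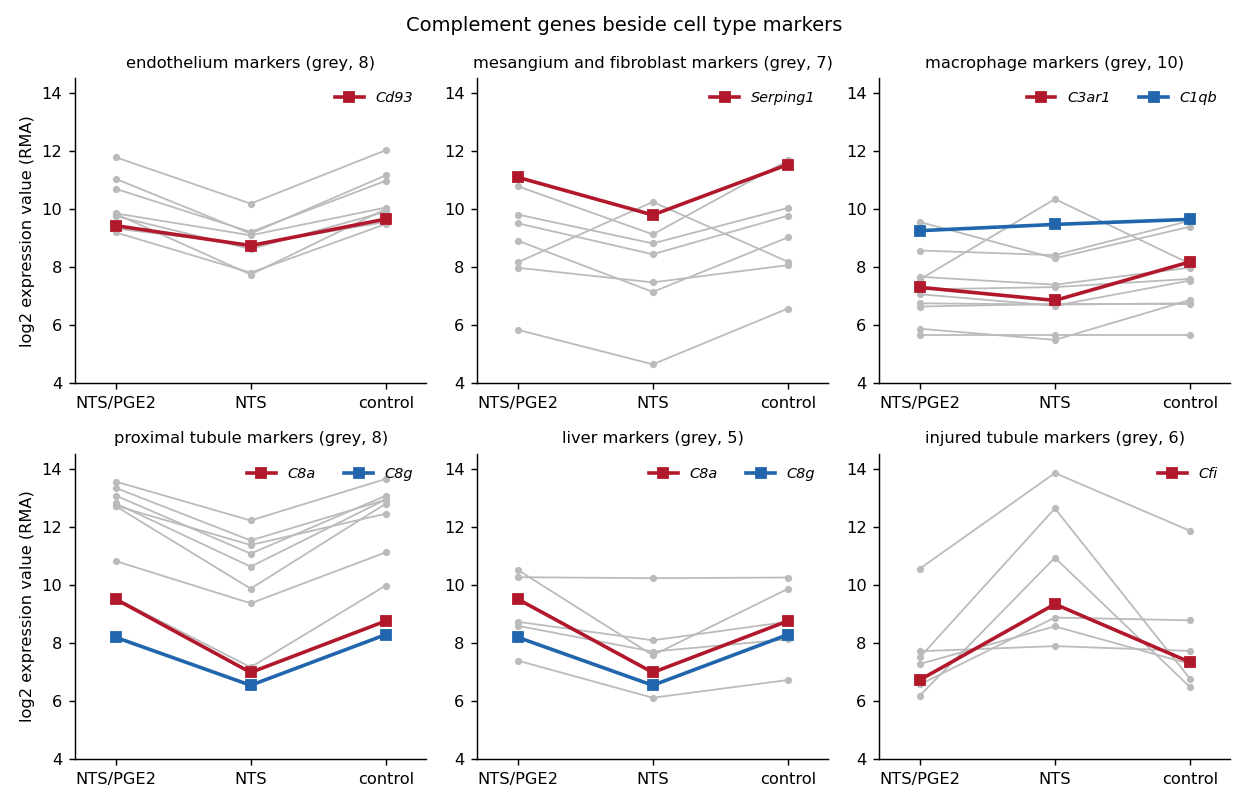
Log2 expression value (vertical axis) on the NTS/PGE2, NTS and control arrays of complement genes (coloured) beside cell type markers (grey, 1 line per marker), 6 panels. Cd93 follows the dip of all 8 endothelium markers on NTS. Cfi peaks on NTS, where all 6 injured tubule markers read highest, though Krt19 and Vcam1 exceed control there by only 0.09 and 0.17.

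For NTS against control, the regulators held the largest positive difference of the 32 genes, in Cfi, and a called negative one, in Serping1. Cfi encodes factor I, the protease that cleaves C3b and C4b with the help of cofactors. It read 6.72 on NTS/PGE2, 9.33 on NTS and 7.33 on control. NTS exceeded control by 2.00 on the log2 scale, and NTS/PGE2 was 6.11-fold below NTS. NTS/PGE2 minus control was -0.61 on the log2 scale, beyond the 0.37 gap between probe sets. All 6 injured tubule markers read higher on NTS than control, 4 of them at least 2-fold. Havcr1 (Kim-1) read 7.50 on NTS/PGE2, 12.63 on NTS and 6.77 on control. The part of injured tubules in the values of Cfi was not tested.

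Serping1 encodes the C1 inhibitor, which inactivates C1r, C1s and the MASP proteases. It read 11.09 on NTS/PGE2, 9.80 on NTS and 11.53 on control. NTS was 3.33-fold below control, and NTS/PGE2 was 2.46-fold above NTS and lay -0.44 from control. Of 7 mesangium and fibroblast markers, 6 read lower on NTS than control, 5 of them at least 2-fold, and Col1a1 read at least 2-fold higher. Decorin (Dcn), of the same list, read 10.79 on NTS/PGE2, 9.13 on NTS and 11.68 on control. The summed linear level of the 7 was 4470 on NTS/PGE2, 2916 on NTS and 6371 on control, the same order as in Serping1. The summed level of the endothelium markers had this order as well. The part of stroma or endothelium in the values of Serping1 was not tested.

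Cd59a encodes the membrane inhibitor that stops C9 from joining the attack complex. It read 11.33 on NTS/PGE2, 10.79 on NTS and 11.70 on control, with NTS minus control at -0.91 and NTS/PGE2 minus NTS at 0.54. Its neighbour and close copy Cd59b read 7.99 on NTS/PGE2, 7.16 on NTS and 8.29 on control. Cd59b passed the 2-fold rule for NTS against control, at -1.13, and Cd59a fell short of it. Since the copies are alike, their separate values are uncertain. The other membrane regulators showed small differences. Cd55, which speeds the decay of convertases, read 7.23 on NTS/PGE2, 7.24 on NTS and 7.27 on control. Cd46, a cofactor for factor I, read 7.16 on NTS/PGE2, 7.19 on NTS and 7.16 on control. Cr1l (Crry), the broad convertase inhibitor of mouse cell membranes, read 8.58 on all 3 arrays.

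Beyond the 32, 25 of 30 other complement genes were measured. On NTS 2 of the 25 read at least 2-fold higher and 1 lower than on control, beside 1.78% and 3.37% of all genes. On NTS/PGE2 0 read at least 2-fold higher and 2 lower than on NTS, beside 2.56% and 2.1% of all genes. Between NTS/PGE2 and control 0 differed 2-fold, beside 0.0351% of all genes higher and 0.421% lower. Clu, clusterin, a soluble inhibitor of the attack complex that injured tubules also express, read 10.85 on NTS/PGE2, 13.07 on NTS and 11.02 on control. It was higher on NTS than control by 2.05 and NTS/PGE2 minus NTS was -2.22. Itgam, the alpha chain of complement receptor 3, read 6.52 on NTS/PGE2, 7.69 on NTS and 6.59 on control, with NTS minus control at 1.10 and NTS/PGE2 minus NTS at -1.17. Its partner chain Itgb2 read 7.31 on all 3 arrays. Itgax, the alpha chain of complement receptor 4 and neighbour of Itgam, read 6.30 on NTS/PGE2, 6.68 on NTS and 6.26 on control. The 7 neutrophil markers differed by -0.06 to 0.20 between NTS and control, with 0 called. Of these, S100a8 and Cxcr2 lay below the 25th percentile of every array. Cpn1, the catalytic chain of carboxypeptidase N that inactivates anaphylatoxins, read 11.24 on NTS/PGE2, 11.35 on NTS and 11.63 on control.

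Between NTS/PGE2 and control, 15 of the 32 complement genes read lower, 3 higher and 14 equal, beside 5486 lower, 6124 higher and 8328 equal of all genes. The 6 classical pathway genes of the list all read lower on NTS/PGE2 than on control, by -0.05 to -0.39. Of these only C1qa and C1qb passed the 0.37 gap between probe sets. Outside the list, C1ra and C4a were equal between these arrays, and the C1s genes C1s1 and C1s2 differed by -0.07 and -0.09. The genes farthest from control were C3ar1 at -0.88, C8a at 0.76, Cfi at -0.61 and Serping1 at -0.44. The 3 comparisons share arrays, so their values are given side by side and not as independent measurements.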

How the data were processed

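Total kidney RNA, 250 ng per array, was labelled with biotin and hybridised to 3 arrays, 1 each for NTS/PGE2, NTS and control, per the labels' protocols; groups follow the sample titles. The deposited values are log2 expression values that the authors made with Affymetrix Expression Console and RMA, per the submitters' processing notes; no version is named there, and the genome build is not given. RMA equalises the arrays' distributions and summarises probes by median polish, which can give exactly equal values and understate small differences. No scanner values or detection calls were used. Array medians were 7.14 on NTS/PGE2, 7.11 on NTS and 7.11 on control.

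Of 35556 probe sets, 21789 had 1 symbol, 1621 several and 12146 were unnamed here. Gene identifiers matched 21698 of the 21789 to GRCm38.p6 RefSeq genes, with 0 symbols altered. Probe sets of a gene were averaged. All genes entered without a filter; a difference of at least 1 counted as called, and no test was run. Promoter windows were found for 24 of the 32 genes. C1qa, C2, C4b, Cfb, Cfi, Cd93, Serping1 and Masp1 had none, so the motif counts leave them out. Values were given in full for genes with a difference of at least 0.5 in any comparison, and for other complement genes with one of at least 1 or in a fixed set (C1ra, C1s1, C4a, Cr1l, Clu, and 1 gene that is not reported here); Colec12, Cpn1, Itgax, Itgb2 and the markers Cd68, Mpeg1, Col1a1 and Dcn were added after their values were seen. The members and lists were chosen with earlier results of these data known. The calculation was tested on simulated data. Python 3.11.15 with pandas 2.3.3 and numpy 2.4.6 was used.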

Additional observations from a re-analysis of the deposited data

How the results depend on the processing

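When array medians, or medians of the brighter probe sets (mean over the arrays at or above the median), were subtracted, differences of single complement genes moved by at most 0.04. The shift was the same for every gene of a comparison, so a called difference, of at least 1, could not change sign. The counts of called complement genes were the same under both scalings and under both filters on dim genes. A gene can pass either filter through the array where it is high. C8a, C8g, C3ar1 and Cfi lay below the array median where they were low, so counts unchanged by the filters say nothing about their stability. Taking the brightest probe set or adding probe sets with several symbols altered 0 values of the 32 genes, each of which rests on 1 probe set, and so says nothing about their stability. A filter on the higher value kept 19, 19 and 18 of the 32 genes in the 3 comparisons, and the median of those kept was -0.16 for NTS/PGE2 against control, where that of all 32 was 0. With the brighter probe sets' medians subtracted, 13 genes of the series in place of 7 stood at least 2-fold higher on NTS/PGE2 than on control. Calling at 1.5-fold in place of 2-fold gave, for complement genes, 3 higher and 6 lower on NTS than on control, 4 higher and 4 lower on NTS/PGE2 than on NTS, and 1 higher and 2 lower on NTS/PGE2 than on control. For all genes it gave 998 higher and 1517 lower on NTS than on control, 1275 higher and 1145 lower on NTS/PGE2 than on NTS, and 75 higher and 285 lower on NTS/PGE2 than on control. Leaving out Cfd could not be run, since it was not analysed here. No paired analysis was possible because each group had 1 array.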

Other observations

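The nearest measured protein-coding genes on either side of the 5 called complement genes were looked up after the members' values were seen, in the GRCm38.p6 gene order. Fyb2, the neighbour of C8a on the side away from C8b, read 6.19 on NTS/PGE2, 8.08 on NTS and 6.02 on control, highest on the array where C8a was lowest. Ube2l6, an interferon-induced conjugating enzyme next to Serping1, read 8.63 on NTS/PGE2, 8.08 on NTS and 9.24 on control. Its difference of -1.16 for NTS against control had the sign of that of Serping1, while Ypel4, on the other side, differed by 0.17. Pla2g12a, a phospholipase gene next to Cfi, read 7.75 on NTS/PGE2, 8.62 on NTS and 8.07 on control, and Gar1, on the other side, differed by 0.17 for NTS against control. Of the neighbours of C8g, Lcn12 and Fbxw5 differed by -0.07 and 0.16. Of those of C3ar1, Foxj2 differed by 0.50 and Necap1 by 0.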
